A study of Mus musculus with 12 samples.

Results

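The genes described here encode the machinery of oxidative phosphorylation: the nuclear-encoded subunits of complexes I to IV of the respiratory chain and of ATP synthase, with assembly factors of complexes I to III. They were measured in bone marrow macrophages of mice whose IRAK4 lacks kinase activity (KD) and of wild-type (WT) mice, with and without lipopolysaccharide (LPS). Members were chosen by gene name and signal level, by a rule set with earlier results of these data known. All probe sets annotated with a single gene symbol that begins with Nduf, Uqcr, Uqcc, Atp5 or Sdh plus a letter from a to d, or with Cox plus a digit from 4 to 8, were taken. These were 191 probe sets of 97 genes. Each gene was represented by its probe set with the highest mean signal, and it was kept where that signal exceeded the array median on at least 2 of 12 arrays. This left 93 genes, of 12914 genes tested in all. They comprised 6 core subunits, 27 accessory subunits and 8 assembly factors of complex I, 8 genes of complex II, 11 of complex III, 16 of complex IV, 5 of the F1 part of ATP synthase and 12 of its Fo part, stalk and associated proteins. The name rule also takes Sdhaf1 to Sdhaf4, which are assembly factors of complex II.

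The 12 one-colour Affymetrix arrays formed 6 groups of 2 biological replicates. The groups were KD cells kept for 4 h without LPS, KD cells after 1 h of LPS, KD cells after 4 h of LPS, and WT cells under the same 3 conditions. LPS was given at 1 µg/ml. All cells grew in medium with L-929 conditioned medium, the source of the growth factor that turns marrow cells into macrophages. Since control cultures lasted 4 h, LPS and culture time differ together in the 1 h comparison. The labels give neither the age of the mice, nor their background strain, nor the IRAK4 mutation, nor whether replicates came from separate animals, so a p-value speaks for array-to-array spread within these groups, which may be technical.

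The respiratory chain passes electrons from NADH (complex I) and succinate (complex II) through ubiquinone to complex III, cytochrome c and complex IV, where oxygen is reduced. Complexes I, III and IV pump protons across the inner mitochondrial membrane, and ATP synthase uses that gradient to make ATP. LPS acts through Toll-like receptor 4, and IRAK4 is the kinase that joins its adaptor MyD88. Macrophages activated by LPS are known to shift their energy metabolism toward glycolysis, while succinate oxidation at complex II and electron flow at complex I take part in their inflammatory signalling.

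Signals correlated across tested probe sets at a Spearman's rho of 0.932 to 0.959 between replicates. Array medians were 24.2 to 26.9 in KD cells and 18.9 to 22.0 in WT cells, at the same trimmed mean of 150. All 8 macrophage markers were tested, and their summed signal was 17850 to 25920 per array. All 6 stromal markers were tested too, with a summed signal of 1424 to 3126, so stromal transcripts were present. The sums for T and NK cell, B cell, neutrophil, erythroid and dendritic cell markers were at most 100.2. The array carries 0 probe sets for Irak4, so the strain labels could not be checked by that gene. The log2 ratio of the 3' to the 5' Gapdh control, a measure of RNA quality, was 1.35 and 0.94 on the KD unstimulated arrays and lay between 0.81 and 1.17 on the other 10. In bulk RNA, fewer cells of a type and less RNA per cell cannot be told apart.

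Most of the oxidative phosphorylation genes were strongly detected. Of the 93, 87 exceeded the array median on all 12 arrays, and the other 6 did so on 3 to 9 arrays (Ndufaf6 on 9, Cox7c on 8, Ndufb1 on 7, Cox6b2 on 5, Ndufa4l2 and Cox8c on 3 each). The probe sets with the highest mean signal were Ndufs7 among complex I core subunits (1806), Ndufc2 among its accessory subunits (3121), Ndufaf8 among its assembly factors (412), Sdha in complex II (1580), Uqcrb in complex III (4436), Cox7a2 in complex IV (5876), Atp5a1 in F1 (3509) and Atp5j2 in Fo (2691). These signals describe single probe sets and do not rank the genes, because probe sets differ in how they hybridise. The 4 genes that were not kept were Cox4i2 (above the median on 1 array), Cox7b2, Cox8b and Ndufb4 (on 0 arrays). Mean signals of these 4 probe sets were 3.53 to 12.6.

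Several subunits exist as isoforms made in different tissues. The widely used forms Cox4i1, Cox6a1, Cox7a2 and Cox8a were above the median on all 12 arrays, with signals of 2126 to 2642, 2824 to 3222, 5115 to 7071 and 444 to 559. The probe set of Cox4i2, the lung and hypoxia form, had signals of 4.0 to 26.9, and that of Cox8b, a heart and muscle form, 3.1 to 24.4. Cox6a2 and Cox7a1, which serve heart and muscle, had signals of 48.6 to 104 and 32.8 to 65.7. The 3 genes of the proton-translocating c subunit, Atp5g1, Atp5g2 and Atp5g3, had 438 to 667, 1200 to 1840 and 2296 to 2890. Cox4i2 and Cox8b were not tested, and of the tested isoform genes named here Cox7a2 alone passed the test in any comparison. The catalytic β subunit of ATP synthase, Atp5b, had 1236 to 1707 and was called in none of the 11 comparisons either.

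**Figure D1:**
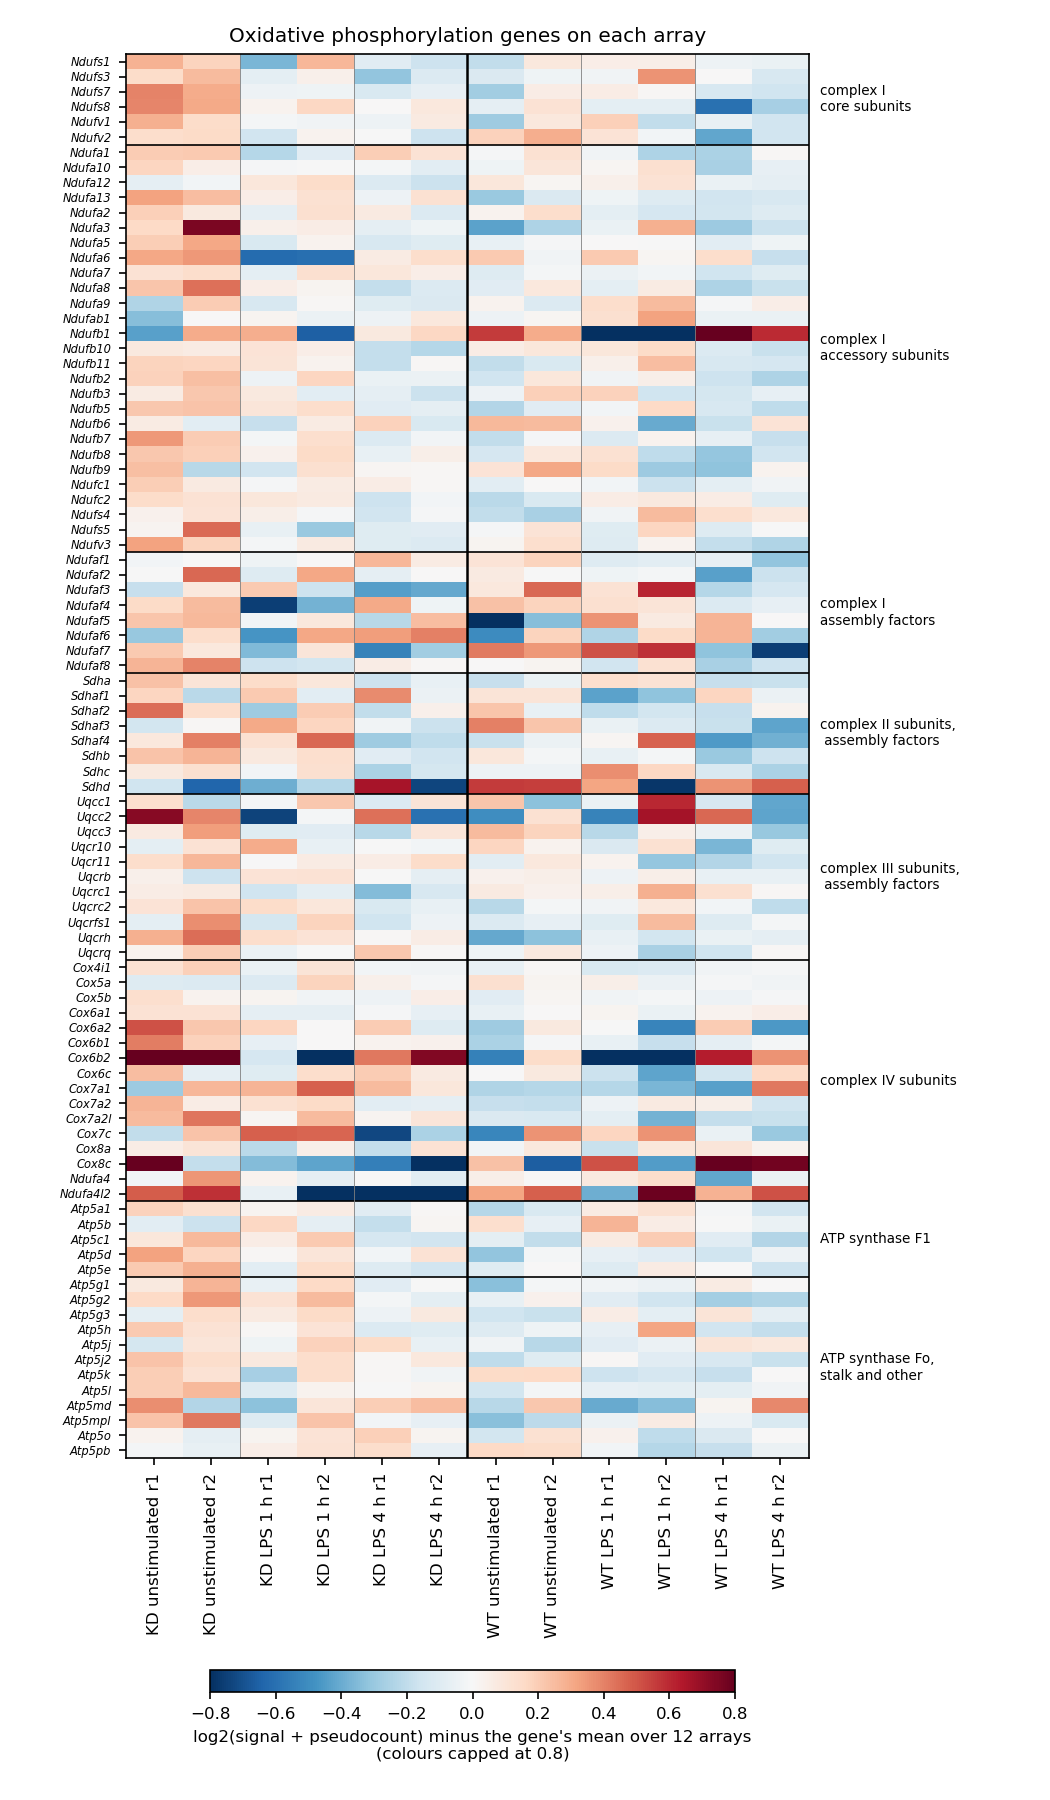
Each row is a gene, grouped by complex, and each column an array; colour gives log2(signal + 4.4) minus the gene's mean over the 12 arrays, capped at 0.8. The left columns, KD unstimulated, are mostly red, and the strongest colours elsewhere belong to genes of low signal such as Cox6b2, Cox8c, Ndufa4l2 and Ndufb1.

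The promoters of 5 members are shown because the results below turn on them or, for Sdha, because the letters of a factor known to drive respiratory genes recur. The sequences are RefSeq's, build GRCm38.p6, from 250 bases before the start of transcription to 30 bases after it, 5' to 3' on the gene's strand. Capitals mark matches to the NRF1 motif, GABPA (CCGGAAG), YY1 (AAGATGG) and ERR (AAGGTCA), searched on both strands; no capitals of different motifs overlap. Uqcrh (chr4:116075041-116075320, minus strand) holds a GABPA match on the reverse strand from base -10, counted from the start. Ndufa3 (chr7:3617123-3617402, plus strand) holds a YY1 match from base 23. Ndufa6 (chr15:82354262-82354541, minus strand) has an NRF1 match from base 24 that ends past the printed bases and is left in lower case. Ndufaf4 (chr4:24897833-24898112, plus strand) holds an NRF1 match from base -113 that reads on both strands. Sdha (chr13:74350211-74350490, minus strand) holds 3 NRF1 matches on the reverse strand, from bases -98, -55 and -10.
Uqcrh: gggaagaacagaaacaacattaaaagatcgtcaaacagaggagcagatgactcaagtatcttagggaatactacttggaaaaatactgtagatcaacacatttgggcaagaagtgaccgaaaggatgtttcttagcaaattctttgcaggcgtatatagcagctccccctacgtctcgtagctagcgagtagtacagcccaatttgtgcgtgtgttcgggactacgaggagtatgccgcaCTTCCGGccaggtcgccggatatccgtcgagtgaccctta
Ndufa3: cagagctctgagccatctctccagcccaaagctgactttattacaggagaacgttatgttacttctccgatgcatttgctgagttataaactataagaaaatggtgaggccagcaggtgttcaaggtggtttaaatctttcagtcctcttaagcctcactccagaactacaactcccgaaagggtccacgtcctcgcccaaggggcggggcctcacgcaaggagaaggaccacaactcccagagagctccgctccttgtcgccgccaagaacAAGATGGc
Ndufa6: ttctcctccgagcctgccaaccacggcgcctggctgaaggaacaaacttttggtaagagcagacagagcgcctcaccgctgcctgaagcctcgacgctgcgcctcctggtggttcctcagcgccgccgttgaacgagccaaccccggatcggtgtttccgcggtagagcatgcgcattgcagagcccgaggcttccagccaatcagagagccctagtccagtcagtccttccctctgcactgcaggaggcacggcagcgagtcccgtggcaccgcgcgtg
Ndufaf4: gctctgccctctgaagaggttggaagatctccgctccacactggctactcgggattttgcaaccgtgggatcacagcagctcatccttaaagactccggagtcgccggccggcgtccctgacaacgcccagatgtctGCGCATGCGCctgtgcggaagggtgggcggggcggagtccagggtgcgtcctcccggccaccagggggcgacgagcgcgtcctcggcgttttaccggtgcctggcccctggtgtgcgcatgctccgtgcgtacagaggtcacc
Sdha: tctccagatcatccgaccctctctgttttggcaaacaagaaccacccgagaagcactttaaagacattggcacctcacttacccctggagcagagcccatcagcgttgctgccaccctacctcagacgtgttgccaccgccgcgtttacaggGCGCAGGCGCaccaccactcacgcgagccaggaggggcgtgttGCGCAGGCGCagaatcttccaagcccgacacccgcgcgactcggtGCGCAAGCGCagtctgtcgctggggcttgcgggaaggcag

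These motifs are those of transcription factors known to act on nuclear respiratory genes. Promoters were matched for 78 of the 93 genes, 83 promoters in all, over windows that reach 50 bases past the start. NRF1 letters were present in 24.1% of these 83 promoters, against 9.21% of 13307 promoters of tested genes and 4.6% of all 32851 promoters. For GABPA the shares were 26.5%, 15.8% and 8.86%, for YY1 14.5%, 6.85% and 6.34%, and for ERR 9.64%, 3.25% and 4.72%. At least 1 of the 4 motifs was present in 57.8%, 30.6% and 22%. By complex, all 7 promoters of complex II genes and 10 of 12 of the Fo group held at least 1, against 4 of 11 of complex IV. A match is a run of letters and does not show that a factor binds.

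Across arrays, the genes stood highest in KD cells without LPS. The mean over the 93 genes of log2(signal + 4.4) relative to each gene's own mean was 0.15 and 0.17 on the KD unstimulated arrays. On the other 10 arrays it lay between -0.08 and 0.03, and the KD unstimulated arrays did not overlap them. On the KD unstimulated arrays 73 and 79 of the 93 genes were above their own mean, and on the WT 4 h arrays 23 and 23 were. The matching shares of all tested probe sets were not taken. All tested probe sets together had means of 0.06 and 0.00 on the KD unstimulated arrays. On the WT 4 h arrays they had -0.10 and -0.10, below the 93 genes (-0.07 and -0.08). With the arrays set to a common median, the mean of the 93 genes was 0.07 and 0.19 on the KD unstimulated arrays, 0.03 and 0.01 on the WT 4 h arrays, and -0.10 to 0.05 over the 10 other than KD unstimulated. The log2 3'/5' ratio of the Actb control was 3.04 and 2.40 on the KD unstimulated arrays and 2.22 to 2.85 on the other 10. The part of RNA quality in the result was not tested.

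**Figure D2:**
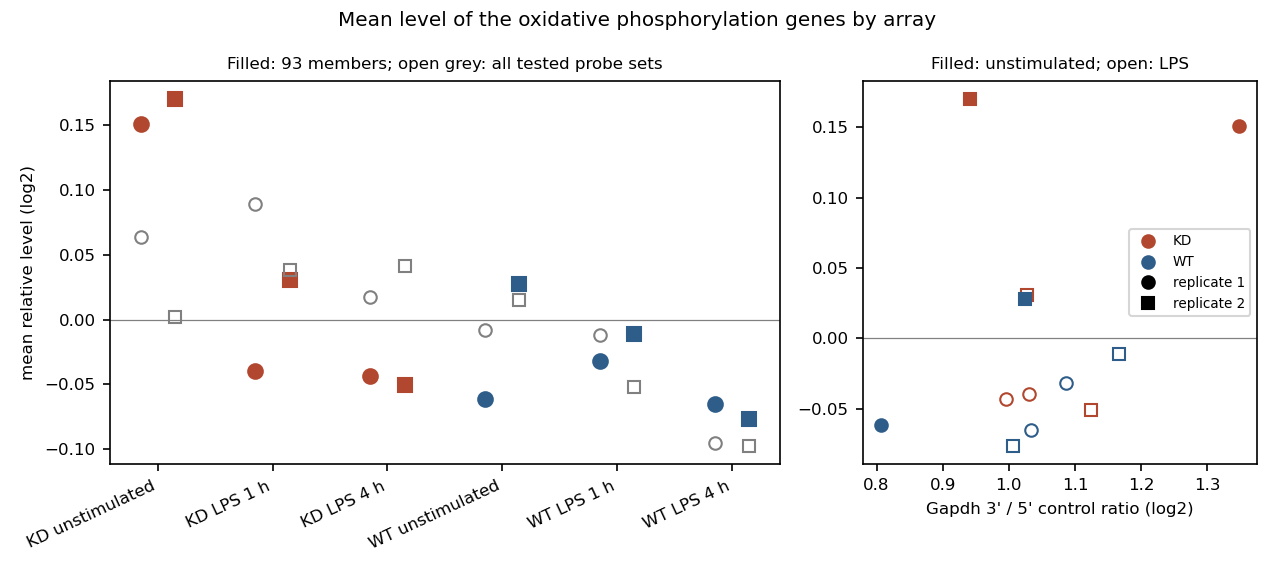
Left, mean relative level (log2) of the 93 genes on each array as filled symbols and of all tested probe sets as open grey symbols, with circles for replicate 1 and squares for replicate 2. Right, the same mean of the 93 genes against the log2 ratio of the 3' to the 5' Gapdh control. Both KD unstimulated arrays stand above the other 10, at 0.15 and 0.17.

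The comparison of the strains without LPS asks whether loss of IRAK4 kinase activity goes with other basal levels. In it, 15 of 93 genes were higher in KD cells and 0 were lower at an adjusted p under 0.05 (limma, Benjamini-Hochberg over all tested probe sets). Of all tested probe sets 5.25% were called, 2.37% as higher and 2.87% as lower in KD. Without adjustment, 33 of the 93 had a p under 0.05. The share of all tested probe sets under that threshold was not taken, here or below. Such counts are therefore not set against the array. The median log2 difference was 0.20 for the 93 genes and 0.03 for all tested probe sets, so the typical change was small. Both KD arrays were above both WT arrays for 51 of the 93 and below them for 10, against 25.3% and 21.2% of tested probe sets. By complex, higher calls were 1 of 6 complex I core subunits, 6 of 27 accessory subunits, 0 of 8 assembly factors, 0 of 8 genes of complex II, 1 of 11 of complex III, 3 of 16 of complex IV, 2 of 5 of F1 and 2 of 12 of the Fo group.

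Uqcrh, the hinge protein of complex III that docks at cytochrome c1, had the lowest adjusted p. Its signals were 2028 and 2271 in KD cells and 1253 and 1321 in WT cells, a mean of 2150 ± 172 against 1287 ± 48.1 (SD, n = 2 each). The groups were far apart and the log2 difference was 0.74 ± 0.09 (SE, adjusted p = 9.3e-05). Ndufa3, a small accessory subunit of complex I, had 1882 and 2843 in KD cells and 1250 and 1415 in WT cells, a log2 difference of 0.80 ± 0.14 (adjusted p = 0.00301). Here the KD replicates themselves lay further apart than the lower of them lay from the WT arrays. Atp5mpl, a small proteolipid attached to Fo, had 1809 and 2064 in KD cells and 1222 and 1334 in WT cells, a log2 difference of 0.60 ± 0.11 (adjusted p = 0.00328).

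Ndufa13, an accessory subunit of complex I also known to bind the transcription factor STAT3, had 3211 and 3056 in KD cells and 2096 and 2376 in WT cells (log2 difference 0.49 ± 0.09, adjusted p = 0.00294). Cox7a2l, which links complexes III and IV into supercomplexes, had 2404 and 2710 in KD cells and 1859 and 1849 in WT cells (0.46 ± 0.11, adjusted p = 0.0154). Ndufs7, the core subunit with the iron-sulphur cluster nearest to ubiquinone, had 2363 and 2205 in KD cells and 1478 and 1866 in WT cells (0.46 ± 0.10, adjusted p = 0.011). For all 3 both KD arrays exceeded both WT arrays. The other 9 genes called were Cox6b1, Atp5d, Ndufb5, Ndufb7, Cox7a2, Atp5a1, Atp5j2, Ndufb11 and Ndufc2, with log2 differences of 0.30 to 0.43. Complex II was not among them: Sdha, its flavoprotein, had a log2 difference of 0.29 (adjusted p = 0.0797) and Sdhd, a membrane anchor, one of -0.95 (adjusted p = 0.0978).

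The count of 15 rested on few arrays. It was 1 without WT unstimulated replicate 1, whose Gapdh 3'/5' ratio of 0.81 was the lowest, 6 without KD unstimulated replicate 1 and 9 without WT unstimulated replicate 2. The call of Uqcrh was kept in all 12 fits that left out an array. Without a trend of the variance prior with signal the count was 0, and Uqcrh too was lost. A further probe set of Ndufb5 gave -0.30 (adjusted p = 0.258) and one of Ndufs7 gave 0.09 (adjusted p = 0.827). The further sets of Ndufc2 gave -0.11, -0.01 and 0.60, the last of them called (adjusted p = 0.00595). Other measures moved with this comparison: the summed signal of 6 of 6 stromal markers was 1424 to 1750 in unstimulated KD cells and 3055 to 3126 in unstimulated WT cells. Of the 6, 4 were called lower in KD cells, and the lowest signal of any of them on any array was 66.9. The summed signal of the 8 macrophage markers was 21660 to 25920 in KD cells and 17850 to 18390 in WT cells, with 3 of 8 called higher. Their part in the result was not tested.

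**Figure D3:**
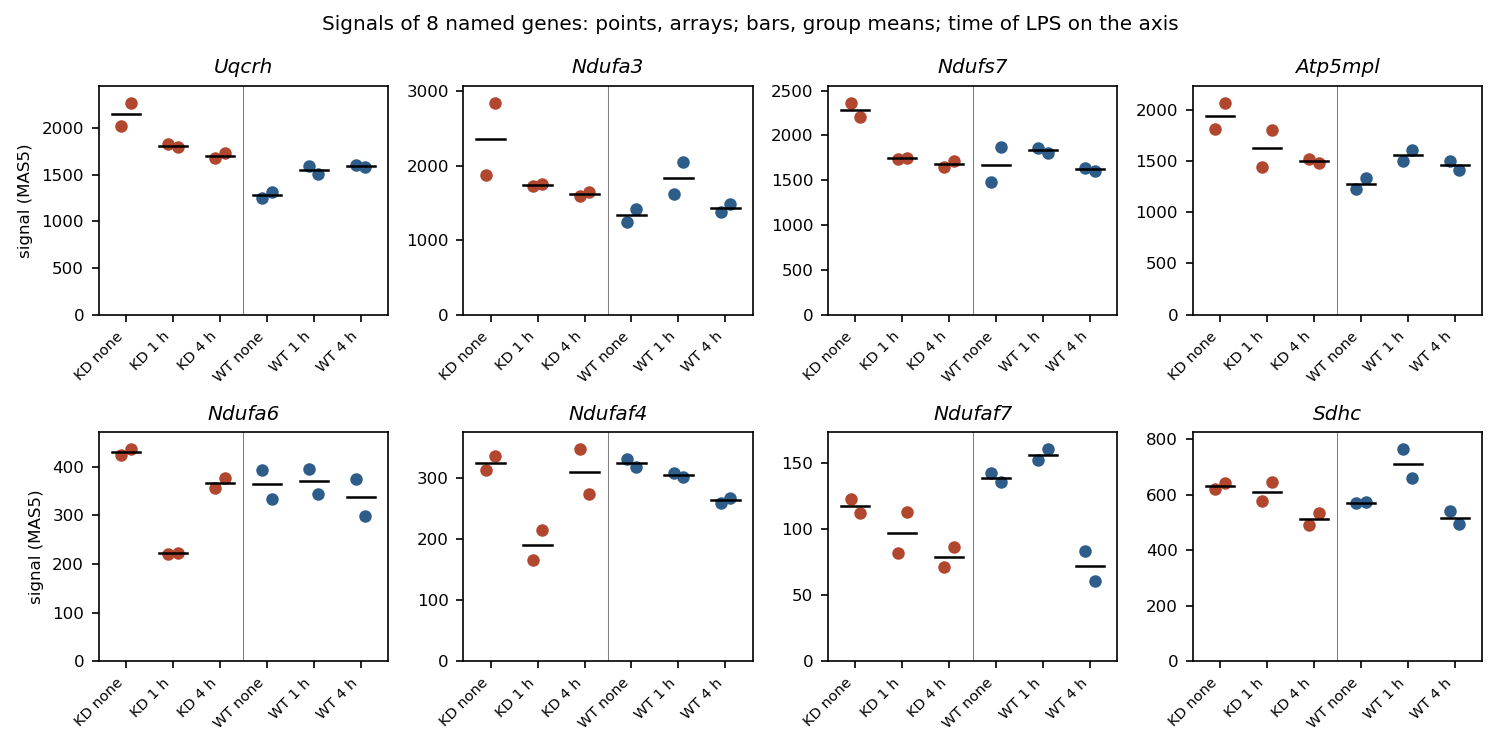
Signals (linear axes from 0) of 8 named genes on each array, as points, with group means as bars; KD groups left, WT groups right, each in the order no LPS, 1 h and 4 h. Uqcrh, Ndufa3, Ndufs7 and Atp5mpl are highest in KD cells without LPS, Ndufa6 and Ndufaf4 are lowest in KD cells at 1 h, and Ndufaf7 is low at 4 h, with 60.7 and 83.7 in WT cells.

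After 1 h of LPS, KD cells had lower levels of 4 of the 93 genes and higher levels of 0 than unstimulated KD cells, with 5.47% of tested probe sets called (3.17% higher, 2.29% lower). All 4 belong to complex I, and 3 of them are an accessory subunit that carries the acyl carrier protein (Ndufa6) or assembly factors (Ndufaf4, Ndufaf8). Ndufa6 fell to 222 and 223 at 1 h in KD cells, against 424 and 436 in unstimulated KD cells (log2 change -0.94 ± 0.15, 0.522-fold, adjusted p = 0.000415). Its replicates agreed closely in both groups, and the call was kept in all 12 fits with an array left out. Ndufaf4 fell to 165 and 215, against 313 and 335 (log2 change -0.77 ± 0.16, adjusted p = 0.00542). Ndufaf8 fell to 364 and 369, against 495 and 539 (log2 change -0.49 ± 0.13, adjusted p = 0.0312). Ndufs7 fell to 1740 and 1747, against 2363 and 2205 (log2 change -0.39 ± 0.10, adjusted p = 0.0282). Each of these 4 pairs of groups was without overlap (both 1 h arrays lay below for 46 of the 93 and for 22.4% of tested probe sets). The count was 1 without KD LPS 1 h replicate 1, and 2 without KD LPS 1 h replicate 2 or KD unstimulated replicate 2. Without the trend in the variance prior it was 1, Ndufa6. A further probe set of Ndufs7 gave -0.24 (adjusted p = 0.424). The summed stromal marker signal was 2480 to 3106 at 1 h, against 1424 to 1750 without LPS, and its part in the result was not tested.

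The low level of Ndufa6 and Ndufaf4 at 1 h was followed by higher levels at 4 h. These were the 2 genes called between 4 h and 1 h of LPS in KD cells, both higher at 4 h, with 8.43% of tested probe sets called (4.55% higher, 3.88% lower). Ndufa6 had 357 and 377 at 4 h (log2 change from 1 h 0.71 ± 0.15, adjusted p = 0.00357) and Ndufaf4 had 347 and 274 (0.70 ± 0.16, adjusted p = 0.00787). Neither was called between 4 h and no LPS, with log2 changes of -0.23 and -0.07. For Ndufaf4 the count depended on 2 arrays: without KD LPS 1 h replicate 1 or KD LPS 4 h replicate 1, 1 gene was called, Ndufa6. Without the trend in the variance prior neither was.

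After 4 h of LPS, 12 of the 93 genes were lower than in unstimulated KD cells and 0 were higher. Of all tested probe sets 10.0% were called, 5.30% as higher and 4.70% as lower. The median log2 change was -0.23 for the 93 genes and -0.05 for all tested probe sets, and both 4 h arrays were below both unstimulated arrays for 60 of the 93, against 27.1% of tested probe sets. Lower calls were spread over the complexes: 2 of 6 complex I core subunits, 5 of 27 accessory subunits, 1 of 8 genes of complex II, 1 of 11 of complex III, 2 of 5 of F1 and 1 of 12 of the Fo group. They included 0 of 16 genes of complex IV and 0 of 8 assembly factors of complex I. This comparison, the one at 1 h and the one between unstimulated strains use the same KD unstimulated arrays, which stood above the other arrays, so the 3 are not independent of each other. The interactions described below use these arrays too.

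Of the 7 complex I genes called, Ndufa3 changed most and fell to 1599 and 1643 at 4 h, against 1882 and 2843 without LPS (log2 change -0.51 ± 0.14, adjusted p = 0.0282). Ndufa8, an accessory subunit on the intermembrane side, fell to 605 and 640, against 805 and 937 (-0.48 ± 0.12, adjusted p = 0.0101). Ndufs7 fell to 1645 and 1710, against 2363 and 2205 (-0.44 ± 0.10, adjusted p = 0.00648). The 4 h arrays lay below the unstimulated ones for all 3. Ndufs3, a core subunit of the arm that reaches ubiquinone, fell to 1298 and 1498, against 1788 and 1921 (-0.41 ± 0.12, adjusted p = 0.0294). The accessory subunits Ndufa5, Ndufv3 and Ndufb7 fell by 0.37, 0.35 and 0.34 on the log2 scale (adjusted p = 0.00949, 0.0163 and 0.0383). A further probe set of Ndufa5 gave 0.04 (adjusted p = 0.894), and one of Ndufs7 gave -0.27 (adjusted p = 0.308).

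Outside complex I, Sdhb, the iron-sulphur subunit of complex II, fell to 504 and 483, against 631 and 652 (log2 change -0.38 ± 0.11, adjusted p = 0.0415). That call was lost in 10 of 12 fits with an array left out. Uqcrh fell to 1676 and 1735, against 2028 and 2271 (-0.33 ± 0.09, adjusted p = 0.022). Of ATP synthase, the ε subunit Atp5e fell to 2146 and 2073, against 2674 and 2809 (-0.38 ± 0.10, adjusted p = 0.016), the γ subunit Atp5c1, which forms the rotating shaft, fell by 0.32 and Atp5mpl by 0.37 on the log2 scale (adjusted p = 0.0375 for both). None of the 12 reached a 2-fold change. Without KD LPS 4 h replicate 1 the count was 0, without KD LPS 4 h replicate 2 it was 4 (3 lower and 1 higher), and without KD unstimulated replicate 2 it was 5. With the arrays set to a common median it was 7, and without the trend in the variance prior it was 0. The summed stromal marker signal was 2553 to 2864 at 4 h, against 1424 to 1750 without LPS. That of the macrophage markers was 20150 to 21630, against 21660 to 25920, with 3 of 8 called lower (Cd68, Lyz2 and Mertk, log2 changes -0.36, -0.34 and -1.55) and a median of -0.19. Their part in the result was not tested.

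**Figure D4:**
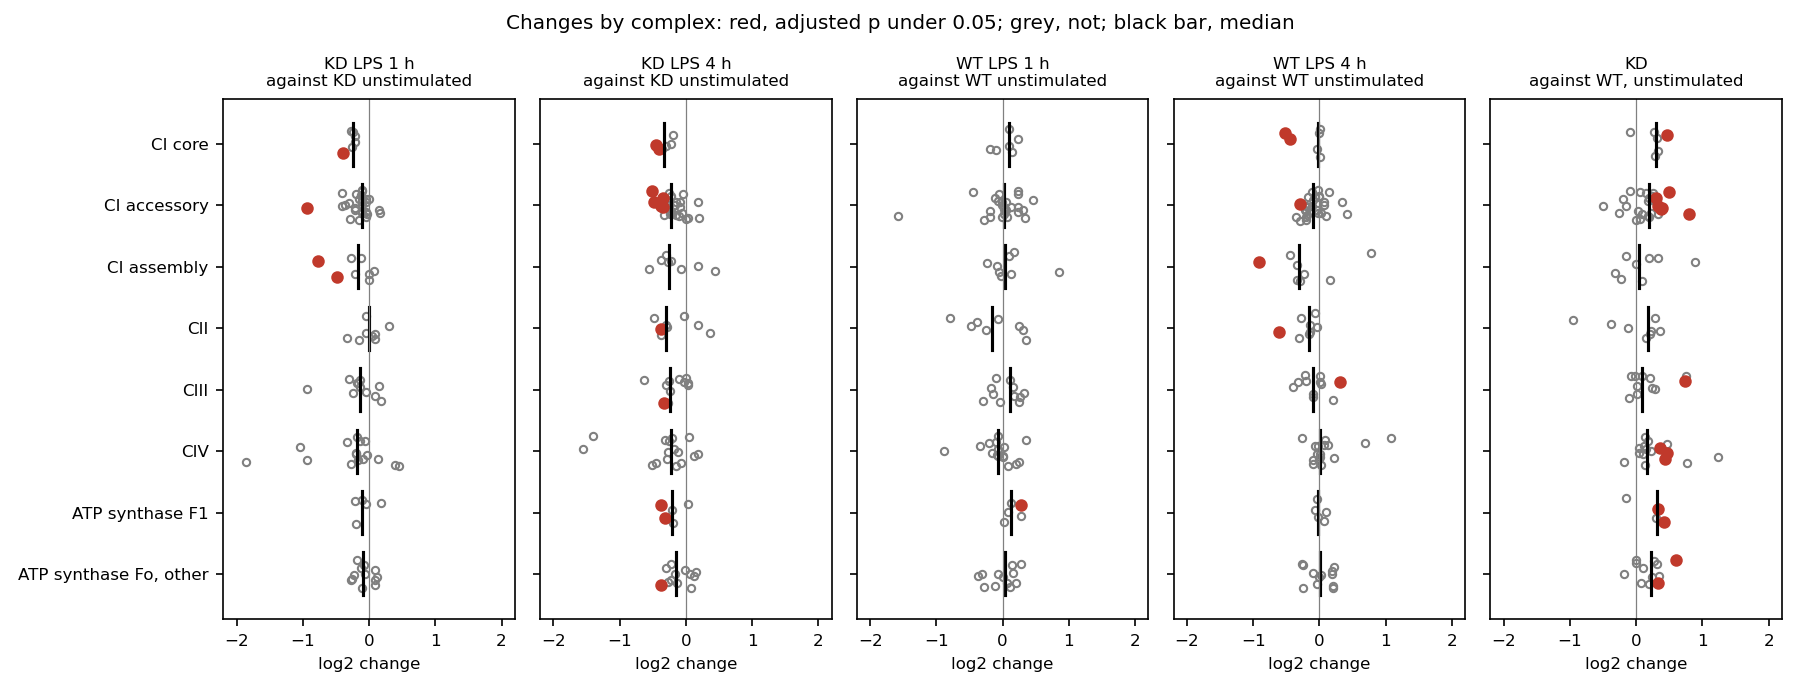
Each point is 1 of the 93 genes, by complex (rows), with its log2 change on the horizontal axis in 5 comparisons (panels); filled red points have an adjusted p under 0.05, open grey points do not, and black bars are medians. Red points lie left of 0 in both KD panels with LPS (4 and 12 genes) and right of 0 for KD against WT without LPS (15 genes).

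In WT cells LPS changed few of these genes. After 1 h, 1 of 93 was higher and 0 were lower than in unstimulated WT cells, with 6.12% of tested probe sets called (2.89% higher, 3.23% lower). The gene was Atp5a1, the α subunit of F1, with 3665 and 3810 at 1 h, against 2981 and 3207 without LPS (log2 change 0.27 ± 0.08, adjusted p = 0.0497). The call was lost in 10 of 12 fits with an array left out, and was absent with quantile normalization, which called 0 genes higher and 2 lower. With the arrays set to a common median, 5 were higher and 0 lower, and without the trend in the variance prior none was called. Counts with an array left out were 0 to 6: 0 without WT unstimulated replicate 1 or 2, without WT LPS 1 h replicate 2, without either WT LPS 4 h array and without any of the 4 KD arrays with LPS, 6 without WT LPS 1 h replicate 1, and 4 and 3 without KD unstimulated replicate 1 and 2. Of the 93, 19 had an unadjusted p under 0.05.

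After 4 h of LPS, 5 of 93 genes were lower and 1 was higher than in unstimulated WT cells, with 17.1% of tested probe sets called (6.95% higher, 10.2% lower). Ndufaf7, the assembly factor that methylates a core subunit of complex I, fell to 83.7 and 60.7, against 142 and 136 (log2 change -0.92 ± 0.22, 0.529-fold, adjusted p = 0.00669). Sdhaf3, an assembly factor of complex II, fell to 112 and 93.8, against 170 and 149 (-0.61 ± 0.19, adjusted p = 0.031). Ndufv2, a core subunit of the NADH-oxidising end of complex I, fell to 663 and 797, against 1009 and 1085 (-0.52 ± 0.12, adjusted p = 0.00314). In all 3 the groups did not overlap, with both 4 h arrays below for 36 of the 93 and for 36% of tested probe sets. Ndufs8, another core subunit, fell to 278 and 350, against 400.0 and 456 (-0.45 ± 0.14, adjusted p = 0.0268), and Ndufv3, an accessory subunit, fell to 1583 and 1532, against 1838 and 1985 (-0.29 ± 0.09, adjusted p = 0.0303). Uqcrh rose to 1603 and 1584, against 1253 and 1321 (0.31 ± 0.09, adjusted p = 0.0217). Further probe sets of Ndufv2 gave -0.02 (adjusted p = 0.932) and -0.80 (adjusted p = 0.0195). The other probe set of Uqcrh gave 0.04 (adjusted p = 0.856).

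The direction of the WT calls at 4 h depended on scaling. The median of all tested probe sets was -0.12, and that of the 93 genes -0.04. With the arrays set to a common median, which moved the median of all tested probe sets by 0.13, 6 genes were higher and 2 lower. With quantile normalization 2 were higher and 7 lower. Without WT LPS 4 h replicate 1 there was 1 call, without either WT LPS 4 h replicate 2 or WT unstimulated replicate 1 there were 2, and without WT unstimulated replicate 2 there were 3. Without the trend in the variance prior there were 2, Ndufaf7 and Sdhaf3. The summed stromal marker signal was 2148 to 2332 at 4 h, against 3055 to 3126 without LPS, with 2 of 6 called lower. That of the macrophage markers was 20290 to 21900, against 17850 to 18390, with 1 of 8 called higher and 1 lower. Their part in the result was not tested.

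Between 4 h and 1 h of LPS in WT cells, 6 genes were lower at 4 h and 2 were higher, with 15.8% of tested probe sets called (7.10% higher, 8.74% lower). With a common median 3 were lower and 3 higher. Of the 6 lower genes, 3 belong to complex II. Sdhc, a membrane anchor, fell to 540 and 492 at 4 h, against 762 and 658 at 1 h (log2 change -0.46 ± 0.12, adjusted p = 0.0117). A further, weaker probe set of Sdhc gave 0.06 (adjusted p = 0.903). Sdhaf4, which assists assembly of Sdha, fell to 156 and 164, against 218 and 301 (-0.66 ± 0.18, adjusted p = 0.0176). Sdha fell to 1383 and 1390, against 1724 and 1705 (-0.31 ± 0.09, adjusted p = 0.0274). The 4 h arrays lay below the 1 h arrays for these 3 complex II genes, none of which was called at 4 h against no LPS (log2 changes -0.15, -0.30 and -0.06). Both 4 h arrays lay below both 1 h arrays for 38 of the 93, and for 31.8% of tested probe sets.

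Ndufaf7 fell to 83.7 and 60.7 at 4 h, against 152 and 160 at 1 h (-1.08 ± 0.22, 0.472-fold, adjusted p = 0.00201), a call kept in all 12 fits with an array left out. Atp5c1 fell by 0.30 and Ndufb11, an accessory subunit of complex I, by 0.27 on the log2 scale (adjusted p = 0.0364 and 0.0436). Atp5md, a small protein tied to the dimers of ATP synthase, was higher at 4 h with 1540 and 1978, against 1143 and 1196 at 1 h (0.58 ± 0.18, adjusted p = 0.0308). Ndufb1, a membrane arm subunit, had 50.7 and 34.5 at 4 h, against 6.6 and 7.9 at 1 h (1.99 ± 0.49, adjusted p = 0.00787). At 1 h its signals lay below the WT array medians of 18.9 to 22.0, and the log2 change was 2.38 with a pseudocount of 1 and 1.10 with one of 23.4. The count was 3 without WT LPS 1 h replicate 2 or WT LPS 4 h replicate 1, and 4 without WT LPS 4 h replicate 2. It was 2 without the trend in the variance prior, Ndufaf7 and Ndufb1. A further probe set of Atp5c1 gave 0.07, and those of Ndufb11 gave 0.03 and -0.24, none of them called. The summed stromal marker signal was 2148 to 2332 at 4 h, against 3042 to 3105 at 1 h, with 2 of 6 called lower, and its part in the result was not tested.

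With LPS, few of the genes differed between strains. At 1 h, 0 were higher and 2 were lower in KD than in WT cells, with 1.11% of tested probe sets called (0.573% higher, 0.533% lower). Ndufa6 had 222 and 223 in KD cells, against 395 and 345 in WT cells (log2 difference -0.72 ± 0.15, adjusted p = 0.0166). Ndufaf4 had 165 and 215 in KD cells, against 308 and 302 in WT cells (-0.68 ± 0.16, adjusted p = 0.0421). KD arrays were below WT arrays for both, as for 12 of the 93 and for 17.3% of tested probe sets. The call of Ndufaf4 was lost in 7 of 12 fits with an array left out and that of Ndufa6 in 3. Without KD LPS 1 h replicate 1 the count was 0. It was 1 without any single WT array and without KD LPS 1 h replicate 2, and without WT LPS 1 h replicate 1 that call was neither of the 2 genes but another one, higher in KD cells. With quantile normalization it was 1, and without the trend in the variance prior 0.

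At 4 h, 1 gene was higher in KD cells and 0 were lower, with 5.37% of tested probe sets called (3.13% higher, 2.24% lower). Ndufs8 had 423 and 447 in KD cells, against 278 and 350 in WT cells (log2 difference 0.48 ± 0.14, adjusted p = 0.0473). The call was lost in 9 of 12 fits with an array left out, when the arrays were set to a common median and without the trend in the variance prior. Its 5 further probe sets gave -0.10 to 0.34, 4 of them above 0 and none called. The count was 0 without either WT unstimulated, WT LPS 1 h or KD LPS 1 h array, without WT LPS 4 h replicate 1 and without KD LPS 4 h replicate 2, and without KD LPS 4 h replicate 1 it was 1, a gene lower in KD cells. The median log2 difference was 0.05 at 1 h and 0.07 at 4 h for the 93 genes, and 0.05 and 0.08 for all tested probe sets. At both times 8 of the 93 had an unadjusted p under 0.05.

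The difference between the strains' responses was tested as an interaction, the KD response minus the WT response. At 1 h, 0 of 93 genes were called by limma, with 0.326% of tested probe sets called, and 24 had an unadjusted p under 0.05. The count was 1 without WT unstimulated replicate 2 and 2 without KD unstimulated replicate 1. The lowest adjusted p was that of Ndufa6 (log2 difference -0.96 ± 0.21, adjusted p = 0.053), which changed by -0.94 in KD cells and by 0.02 in WT cells. At 4 h, 1 of 93 was called, with 3.07% of tested probe sets called (1.88% higher, 1.19% lower), and 22 had an unadjusted p under 0.05. The gene was Uqcrh, whose response was lower in KD than in WT cells by 0.64 ± 0.13 (log2 difference -0.64, adjusted p = 0.00863). It fell in KD cells and rose in WT cells, and was the only 1 of the 93 called in opposite directions in the strains at 4 h. Its signals at 4 h were 1676 and 1735 in KD cells and 1603 and 1584 in WT cells, so that the strains lay closer together than without LPS (log2 difference at 4 h 0.10, adjusted p = 0.627). The other probe set of Uqcrh changed at 4 h by -0.14 in KD cells (adjusted p = 0.444) and by 0.04 in WT cells (adjusted p = 0.856). Ndufv3 was called lower at 4 h in both strains (interaction -0.06, adjusted p = 0.893).

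The call of Uqcrh in the interaction was lost in 3 of 12 fits with an array left out: without WT unstimulated replicate 1, WT LPS 4 h replicate 1 or KD LPS 4 h replicate 1 the count at 4 h was 0. It was 3 without KD unstimulated replicate 1, and 2 without KD unstimulated replicate 2, WT unstimulated replicate 2 or either KD LPS 1 h array. With the arrays set to a common median 5 genes were called lower, and without the trend in the variance prior 0. The median interaction at 4 h was -0.15 for the 93 genes and 0.07 for all tested probe sets, and that at 1 h was -0.17 and 0.03. Both interactions use the KD unstimulated arrays, so they are not independent of the strain difference without LPS, for Uqcrh or for the 93 genes. Of 6 stromal markers, 5 had a higher response in KD cells at 4 h and 0 a lower one. Of 8 macrophage markers, 0 had a higher response and 2 a lower one (Cd68 -0.49, Cd14 -0.53), with a median of -0.37. Their part in the result was not tested.

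Many genes are covered by more than 1 probe set, which allows the calls to be set beside a further measurement on the same arrays. A further probe set was tested for 49 of the 93 genes, 78 sets in all. A further set existed for 34 of the 52 calls and gave 54 further values, several of them for some genes. Of these, 45 had the same direction as the call, 10 were called in the same direction and 0 in the opposite one. The set that represents Uqcrh has a suffix that marks probes shared by more than 1 transcript. Its other set gave a difference between unstimulated strains of 0.44 ± 0.10 (adjusted p = 0.0117) and an interaction at 4 h of -0.18 ± 0.14 (adjusted p = 0.594). For Ndufa3, whose set has a different suffix, further sets gave 0.32 ± 0.12 (adjusted p = 0.132) and, at weak signal, -0.24 (adjusted p = 0.864) between unstimulated strains. For Sdha a further set gave -0.42 ± 0.11 (adjusted p = 0.0147) between 4 h and 1 h in WT cells. For Ndufaf4 a further set gave -0.33 ± 0.17 (adjusted p = 0.337) at 1 h in KD cells.

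Other genes of the pathway were counted from lists made alongside the 93. The mitochondrially encoded subunits were not analysed here, since 0 of 13 were found under their symbols. Of 34 tested genes for cytochrome c, coenzyme Q synthesis and chain assembly, 0 were higher and 1 was lower in unstimulated KD than in unstimulated WT cells (2.94%, against 5.25% of tested probe sets). That gene was Cycs, the cytochrome c that carries electrons between complexes III and IV, with 1721 and 1519 in KD cells and 2441 and 2118 in WT cells (log2 difference -0.49 ± 0.10, adjusted p = 0.00901). It rose in KD cells at 4 h of LPS (0.37 ± 0.10, adjusted p = 0.0287), as did Coq8a, a coenzyme Q synthesis gene (0.57, adjusted p = 0.00385), with 0 of 34 lower. These 2 were 5.88% of the 34, against 10.0% of tested probe sets. At 1 h in KD cells 1 of the 34 was higher (2.94%, against 5.47% of tested probe sets). It was Foxred1, a complex I assembly factor (1.57 ± 0.39, adjusted p = 0.0226). Its signals were weak, 80.1 and 67.3 at 1 h, against 29.5 and 15.9 without LPS, near the KD array medians of 24.2 to 26.9. In WT cells at 4 h, 5 of the 34 were lower and 1 was higher, a share close to the 17.1% of all tested probe sets. The 4 with the largest changes were Timmdc1 and Tmem126b, which assemble complex I (-0.75 and -0.74), Cox15, which makes heme a for complex IV (-0.53), and Coq2 (-0.51). The gene that rose was Cyc1, cytochrome c1 of complex III (0.47 ± 0.14, adjusted p = 0.0219).

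AA467197, which the name rule does not take, is the mouse name of a paralog of Ndufa4, known to take its place in complex IV in inflamed cells. Its signals in KD cells were 218 and 238 without LPS, 212 and 229 at 1 h and 421 and 499 at 4 h. In WT cells they were 214 and 263 without LPS, 361 and 284 at 1 h and 996 and 1028 at 4 h. It rose in both strains at 4 h, by 1.00 ± 0.15 in KD cells (adjusted p = 0.000172) and by 2.07 ± 0.15 in WT cells (adjusted p = 6.65e-09), and the difference between these responses was -1.08 ± 0.22 (adjusted p = 0.00933). Ndufa4 itself had 448 and 424 at 4 h in KD cells and 335 and 435 at 4 h in WT cells, and was called in none of the 11 comparisons. Its other paralog Ndufa4l2 had signals of 4.1 to 28.6 over the 12 arrays.

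**Figure D5:**
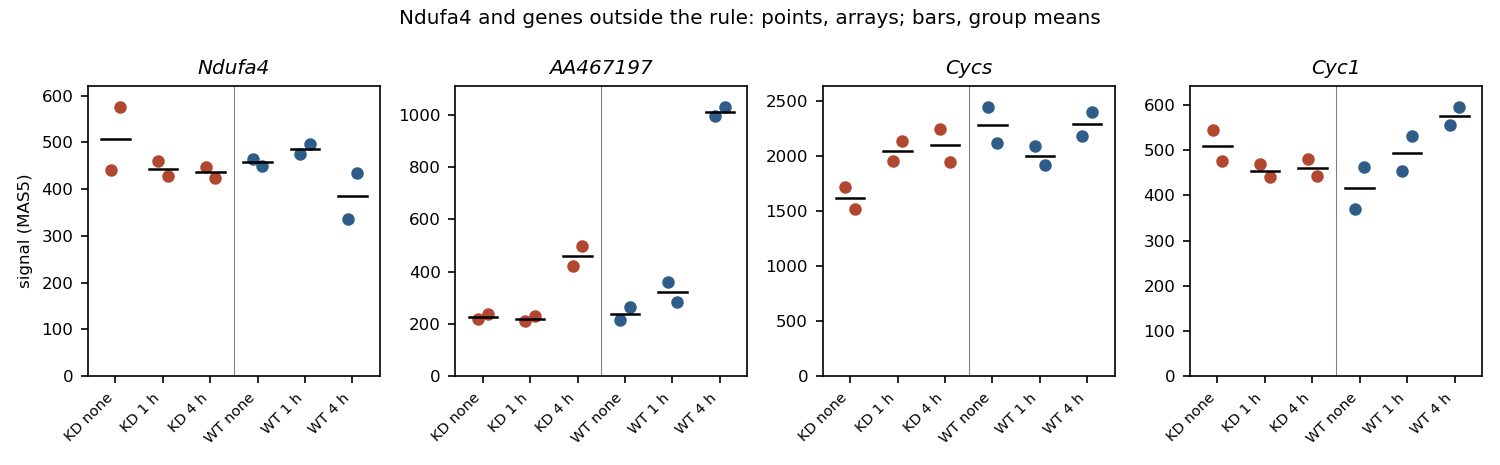
Signals (linear axes from 0) of Ndufa4, its paralog AA467197, cytochrome c (Cycs) and cytochrome c1 (Cyc1) on each array, as points, with group means as bars; KD groups left, WT groups right. AA467197 stands at 996 and 1028 in WT cells at 4 h of LPS and at 421 and 499 in KD cells at 4 h, and Cycs is lowest in KD cells without LPS (1721 and 1519).

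Of 16 genes of the tricarboxylic acid cycle, which feeds electrons to the chain, 1 was higher and 0 were lower in unstimulated KD than in unstimulated WT cells (5.25% of tested probe sets called), and 0 were higher and 1 lower in KD cells at both 1 h (5.47%) and 4 h (10.0%). In WT cells 2 were higher and 1 lower at 1 h (6.12%), 1 higher and 1 lower at 4 h (17.1%), and 1 higher and 2 lower at 4 h against 1 h (15.8%). The calls at 1 h in WT cells were Cs (0.33), Sucla2, a subunit of succinyl-CoA synthetase (0.42), and Pdhb, a subunit of pyruvate dehydrogenase (-0.48). Between 4 h and 1 h they were Dld (0.96), Idh2 (-0.92) and Ogdh, of the oxoglutarate complex (-0.57). Cs, citrate synthase, was the 1 gene higher in unstimulated KD than in unstimulated WT cells, with 3166 and 3264 against 2135 and 2416 (log2 difference 0.50 ± 0.09, adjusted p = 0.00255), and its 4 h response was lower in KD cells (interaction -0.53 ± 0.12, adjusted p = 0.0241). In KD cells Idh2 was the gene called at both times. Idh2, the NADP-dependent mitochondrial isocitrate dehydrogenase, was the 1 gene lower at 4 h in each strain. It fell to 737 and 660 in KD cells at 4 h, against 1069 and 1302 without LPS (-0.75 ± 0.12, adjusted p = 0.000224). In WT cells it fell to 423 and 394, against 907 and 957 (-1.18 ± 0.12, adjusted p = 4.72e-07). The 4 h arrays lay below the unstimulated ones in both strains, as for 27.1% of tested probe sets in KD and 36% in WT cells. The interaction was not called (0.43 ± 0.17, adjusted p = 0.206). In WT cells at 4 h 1 of the 16 was higher, Dld, the shared dehydrogenase subunit of the pyruvate and oxoglutarate complexes (0.56 ± 0.16, adjusted p = 0.0168).

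Of 16 tested regulators of mitochondrial gene expression, 0 were called between the unstimulated strains or at 1 h in KD cells, against 5.25% and 5.47% of tested probe sets. At 4 h 1 was higher and 0 were lower in KD cells, and 3 were higher and 0 lower in WT cells, against 10.0% and 17.1% of tested probe sets called. Gabpb1, which pairs with GABPA, rose in KD cells by 0.73 ± 0.14 (adjusted p = 0.00154) and in WT cells by 0.78 ± 0.14 (adjusted p = 0.00044). Tfam, which packages and transcribes mitochondrial DNA, rose in WT cells by 0.58 ± 0.19 (adjusted p = 0.0416), and Yy1 by 0.34 ± 0.09 (adjusted p = 0.0111). Myc rose in WT cells at 1 h (1.38 ± 0.26, adjusted p = 0.00275), the 1 call among the 16 there, against 6.12% of tested probe sets. Of 15 tested carriers, uncoupling and activation partners, 5 were higher and 0 lower at 4 h in KD cells, and 4 were higher and 3 lower in WT cells, against the same 10.0% and 17.1%.

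Acod1, whose product makes the complex II inhibitor itaconate, rose strongly in both strains. It had 5695 and 6153 in KD cells at 4 h, against 656 and 673 without LPS (log2 change 3.15 ± 0.09, adjusted p = 1.53e-14). In WT cells it had 6817 and 5954 at 4 h, against 867 and 807 without LPS (2.92 ± 0.09, adjusted p = 2.94e-14), and the interaction was 0.22 (adjusted p = 0.437). Nos2, which makes nitric oxide, an inhibitor of complex IV, rose by 2.13 in KD cells (adjusted p = 0.0438) and by 3.66 in WT cells (adjusted p = 0.000431), with an interaction of -1.53 (adjusted p = 0.474). Pdk4, a kinase that restrains entry of pyruvate into the cycle, had 1800 and 1938 in KD cells at 4 h, against 1203 and 1142 without LPS, and rose (0.67 ± 0.15, adjusted p = 0.0048). In WT cells it fell to 1218 and 960, against 1484 and 1473 (-0.45 ± 0.15, adjusted p = 0.0401). Its responses differed between the strains by 1.12 ± 0.21 (adjusted p = 0.00557).

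Over the 11 comparisons there were 52 calls on 34 of the 93 genes, and 59 genes were called in none. Of the 52, 4 were kept in all 12 fits that left out 1 array: Ndufa6 at 1 h against no LPS and at 4 h against 1 h in KD cells, Ndufaf7 at 4 h against 1 h in WT cells, and Uqcrh between the unstimulated strains. Without the trend in the variance prior 5 of the 52 were kept. The 2 calls with at least a 2-fold change were those of Ndufb1 and Ndufaf7 between 4 h and 1 h in WT cells. Uqcrb, the brightest probe set of complex III, had log2 changes between -0.15 and 0.22 in all 11 comparisons, with the lowest adjusted p at 0.237.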

How the data were processed

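Per the labels' protocols, total RNA was isolated with RNeasy kits, then amplified and labelled by NuGEN Ovation. Each array's deposited column holds a linear signal intensity for every probe set. Per the submitters' processing notes these come from MAS5, whose version is not given in the sources used here. Their mean after trimming 2% from each end was 150 on every array, and they were not rescaled. Of 45101 probe sets, 64 controls were left out. The platform annotation gave 34958 probe sets 1 gene symbol and 932 more than 1, and left 9211 unnamed. A total of 10 probe sets with several symbols included a symbol of the rule and were not used.

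Values were taken as log2(signal + 4.4), where 4.4 is percentile 20 over every deposited value; a fold change computed so understates the change of weak probe sets. The 27931 probe sets above the array median on at least 2 arrays were fitted together, with 1 mean per group over all 12 arrays, in limma 3.58.1 (R 4.3.3) with a variance prior that follows the mean. Adjusted p-values are Benjamini-Hochberg's over all of these within a comparison, called under 0.05. The fit was tested on simulated data. The number of arrays limits the precision, and the files give no batch. Every called gene was named where at most 12 were called in a direction, otherwise the 6 largest, together with the brightest of each complex, isoform pairs and catalytic subunits, and up to 4 called genes of each other list. The members, lists and rules were chosen with earlier results of these data known. Replicate numbers were checked as pairs: over 15 pairs of groups the deviations of same-numbered arrays correlated at -0.068 to 0.04. No shared deviation across probe sets was seen, but the labels do not say whether same-numbered arrays share an animal. Alternatives were quantile normalization, a common median, pseudocounts of 1 and 23.4, a filter at each array's percentile 75 or none at all, no trend in the variance prior, a replicate block, probe sets without suffix, and leaving out each array. Promoter sequences are RefSeq's for build GRCm38.p6.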

Additional observations from a re-analysis of the deposited data

Results flagged for a closer look

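The response of Uqcrh to 4 h of LPS differed between the strains in the test of that difference: the KD response minus the WT response was -0.64 ± 0.13 on the log2 scale (limma, adjusted p = 0.00863). Both KD arrays at 4 h were below both unstimulated KD arrays, and both WT arrays at 4 h were above both unstimulated WT arrays. The first held for 60 of the 93 genes and 27.1% of tested probe sets, the second for 13 and 21.7%. The other probe set of the gene gave -0.18 (adjusted p = 0.594), with changes of -0.14 in KD cells (adjusted p = 0.444) and 0.04 in WT cells (adjusted p = 0.856). The test uses the KD unstimulated arrays, so it is not independent of the difference between unstimulated strains.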

How the results depend on the processing

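Counts of called genes out of 93 moved with the settings as follows, and the cause was not tested. Without the trend in the variance prior, 1 gene was called in KD cells after 1 h and 0 after 4 h of LPS, 0 at 4 h against 1 h in KD cells, 0 at 1 h, 2 at 4 h and 2 at 4 h against 1 h in WT cells, 0 between the strains in each of the 3 conditions and 0 in the 4 h interaction; 5 of the 52 calls were kept. With a common median, 7 were called at 4 h in KD cells, 5 at 1 h in WT cells, 0 between strains at 4 h, and 1 and 5 in the interactions at 1 h and 4 h. This setting moved the median of all tested probe sets by 0.13 for WT cells at 4 h, by -0.11 between strains at 4 h and by -0.12 in the 4 h interaction. With quantile normalization, 2 were called at 1 h in WT cells, 1 between strains at 1 h, and 1 and 2 in the interactions. Without a filter on low signal, which tests more probe sets, 7 were called at 4 h in KD cells, 0 at 1 h and 5 at 4 h against 1 h in WT cells, and 1 and 0 between strains at 1 h and 4 h. With the stricter filter 7 were called at 1 h and 5 at 4 h against 1 h in KD cells, 4 at 1 h in WT cells, and 1 and 2 in the interactions. A pseudocount of 1 gave 0 at 1 h in WT cells, and one of 23.4 gave 2 there and 1 in the 1 h interaction. Probe sets without suffix gave 3 at 1 h in WT cells, 0 between strains at 4 h and 1 in the 1 h interaction.

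With the replicate number as a block, 1 gene was called between strains at 1 h and 2 in the 1 h interaction. The other counts stayed within 1.5 times, with 14 between unstimulated strains and 11 at 4 h in KD cells. The labels do not say whether the numbers pair the arrays.

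Leaving out 1 array at a time, the counts ranged over 1 to 4 and 0 to 15 at 1 h and 4 h in KD cells, 1 to 2 at 4 h against 1 h in KD cells, 0 to 6, 1 to 6 and 3 to 10 in the same WT comparisons, 1 to 15, 0 to 2 and 0 to 1 between strains without LPS, at 1 h and at 4 h, and 0 to 2 and 0 to 3 in the interactions. A lone array was then assumed to vary like the other groups.

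With the brightest probe set without suffix, 6 called changes turned round, none of them called in the new direction: Ndufa5 at 4 h in KD cells (0.0422), Ndufb11 and Atp5c1 at 4 h against 1 h in WT cells (0.0278 and 0.0698), Ndufb5 and Ndufc2 between unstimulated strains (-0.30 and -0.11) and Ndufs8 between strains at 4 h (-0.10). With 2 arrays per group, changes of weak probe sets such as Ndufb1 and Cox6b2 are poorly measured.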

Other observations

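Among the members whose promoters were matched, NRF1 letters were found in 0 of 14 promoters of the genes higher in unstimulated KD cells and in 20 of 69 promoters of the other genes. For GABPA the counts were 3 of 14 and 19 of 69. The split was made after the values were seen, and it was not tested.

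Sdhd had signals of 758, 546, 646, 724, 1343 and 509 on the 6 KD arrays and of 1254, 1248, 1058, 492, 1088 and 1186 on the 6 WT arrays, in the order unstimulated, 1 h and 4 h. The replicates lay far apart in KD cells at 4 h (1343 and 509) and in WT cells at 1 h (1058 and 492), and the gene was called in no comparison.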
